A study of Mus musculus with 6 samples.

Results

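The major histocompatibility complex (MHC), called H2 in the mouse, was examined together with the genes that supply it with peptides, switch it on or costimulate T cells beside it, in a line of group 2 innate lymphoid cells (ILC2s) given a CRISPR guide against Myc. Members were all named probe sets whose gene symbol starts with H2-, plus B2m, Tap1, Tap2, Tapbp, Tapbpl, Nlrc5, Ciita, Cd74, Erap1, Cd80 and Cd86. This rule found 48 genes among 23185 named genes: 3 of classical class I, 24 other class I genes of the K, Q, T and M regions, 12 of class II, 6 of class I peptide supply with the regulator Nlrc5, 2 B7 ligands, and H2-Ke6, an H2-named gene that encodes a hydroxysteroid dehydrogenase and no MHC chain. RefSeq classes 4 of them as pseudogenes (H2-K2, H2-Bl, H2-T10 and H2-Ea).

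The cells labelled Myc knockout and the cells labelled control came from an ILC2 line of C57BL/6J mice grown with 10 ng/ml each of IL-2 and IL-33. Both were transduced with a lentiviral CRISPR construct that carries GFP, with a guide RNA for Myc in one group and a non-target guide in the other, and GFP-positive cells were sorted on day 6. Total RNA was hybridised to 6 Affymetrix arrays, 3 per group. Whether replicate arrays come from separate cultures is not in the labels. The p-values therefore reflect spread among these samples alone, and that spread may be technical. The cells are 1 line, transduced in bulk, so a group can hold cells with different edits.

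Class I molecules pair a heavy chain with beta-2 microglobulin and show peptides from inside the cell to CD8 T cells and to receptors of NK cells. The peptides are cut in the cytosol, pumped into the endoplasmic reticulum by the TAP transporter, trimmed there and loaded with the help of tapasin. Class II molecules take peptides from endosomes, with the invariant chain holding the groove until H2-DM exchanges it for peptide, and show them to CD4 T cells, a role that mouse ILC2s are known to share with dendritic cells and B cells. NLRC5 switches on class I genes and CIITA class II genes, both through a conserved promoter module of X and Y boxes.

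The upstream sequences of 3 class I genes are shown because H2-Q10 was the sole member past the threshold and its promoter closely resembles those of genes that did not pass. They are the 180 bases before the RefSeq transcript start in build GRCm38.p6, all on the plus strand, with capitals where a script found one of the 5 motifs named below. H2-Q10 lies at chr17:35469909-35470088, H2-D1 at chr17:35262914-35263093 and H2-Q4 at chr17:35379437-35379616.
H2-Q10: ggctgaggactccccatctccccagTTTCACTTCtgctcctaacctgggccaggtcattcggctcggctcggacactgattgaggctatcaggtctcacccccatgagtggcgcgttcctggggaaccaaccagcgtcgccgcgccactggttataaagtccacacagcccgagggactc
H2-D1: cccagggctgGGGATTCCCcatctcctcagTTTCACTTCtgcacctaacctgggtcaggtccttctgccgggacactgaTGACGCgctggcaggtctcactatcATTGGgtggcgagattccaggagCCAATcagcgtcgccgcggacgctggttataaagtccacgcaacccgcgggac
H2-Q4: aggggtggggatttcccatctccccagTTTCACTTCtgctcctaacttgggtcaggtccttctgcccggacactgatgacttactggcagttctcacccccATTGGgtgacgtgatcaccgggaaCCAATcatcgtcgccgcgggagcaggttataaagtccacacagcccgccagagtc

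Each motif was searched on both strands of the 250 bases before the start, in 27025 RefSeq promoters, of which 35 belong to members. The most upstream start of each gene was used. Members outside these 35 were not searched, among them H2-Ab1, Cd74, Ciita, Nlrc5, Tap2, Tapbpl and H2-T24. The letters GAANNGAAA, the core of an interferon response element, stand as their reverse complement in all 3 sequences shown, in 7 of the 35 members and in 6.35% of all promoters. CCAAT, the core of the Y box, was present in 29 of the 35 members against 34.5% of all promoters, and H2-Q10 was among the members without it, where H2-D1 and H2-Q4 each hold it in both orientations. TGACGC, an X2 box core, was found in H2-D1, H2-K1 and H2-M3 and in 6.14% of all promoters. GGGATTCCC, from the kappaB site of class I promoters, was found in H2-D1, H2-K1 and H2-Q7 and in 0.315% of all promoters. Neither it nor TGACGC was in the window of H2-Q10 or of H2-Q4, and each was found in 3 of the 35 members. CACGTG, the E-box bound by MYC with MAX, was present in 6.04% of all promoters and, among the 35 members, in Erap1 alone. These motifs do not overlap each other in the sequences shown. Over the 250 bases, 79.9% of alignment columns were identical between H2-Q10 and H2-D1, and 71.3% between H2-Q10 and H2-Q4. A match of letters is a description and does not show binding, and a missing match says only that these letters are not in this window.

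Values are RMA log2 values as deposited, in which each array is brought to the same distribution, so a level is relative to the other arrays. Array medians lay between 3.27 and 3.34 and lower quartiles between 2.04 and 2.13. The threshold for a change was an adjusted p under 0.05 in limma, by Benjamini-Hochberg over all 23185 genes. Differences are arrays labelled Myc knockout minus control, given ± SE, and means are ± SD (n = 3 arrays per group). Myc itself read 9.55, 9.79 and 9.73 in the arrays labelled Myc knockout and 9.27, 9.33 and 9.39 in the controls, with no overlap. The difference was 0.36 ± 0.080, or 1.28-fold higher, and did not pass (limma's adjusted p = 0.127). The exact two-sided permutation p was 0.1, the smallest that 3 against 3 arrays allow. The target mRNA thus showed no reduction where the label says knockout, and every direction given here rests on the labels. The arrays read mRNA alone, so whether the gene was edited or its protein lost was not tested.

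Of 11 ILC2 markers, 9 lay at or above the median level of all named genes, 3.34, and Thy1 and Il17rb lay below it. Of 8 dendritic cell markers 0 reached that level. Among the others, 1 of 7 B cell markers (Pax5), 2 of 7 macrophage and monocyte markers (Cd68 and Ly6c2) and 3 of 8 T cell markers (Cd3g, Cd8a and Cd28) did. Summed log2 values of the dendritic cell list were 19.2 to 19.9 in the arrays labelled Myc knockout and 18.3 to 19.5 in the controls. B cell markers summed to 15.1 to 15.9 in the arrays labelled Myc knockout and 15.2 to 15.9 in the controls, and macrophage and monocyte markers to 21.4 to 22 in the arrays labelled Myc knockout and 21.7 to 21.8 in the controls. T cell markers summed to 25.3 to 26.2 in the arrays labelled Myc knockout and 25.8 to 26.5 in the controls, and ILC2 markers to 85.6 to 86.5 in the arrays labelled Myc knockout and 85.5 to 85.9 in the controls. The groups overlapped in all 5 sums. The ILC2 list went both ways. The cytokine gene Il5 rose (1.40-fold, limma's adjusted p = 0.0386), and Icos and Il13 had differences of 0.16 ± 0.057 and 0.23 ± 0.095 without passing. Gata3, the lineage's main transcription factor gene, Il7r and Ptprc had differences of −0.25 ± 0.066, −0.22 ± 0.076 and −0.17 ± 0.060 and did not pass either (limma's adjusted p = 0.173 for Gata3). The groups of these 6 genes did not overlap, though those of Il13 nearly touched. Of all genes at or above the median level, 18.6% were lower and 10.8% higher without overlap. The T cell list also went both ways, with 5 negative and 3 positive differences and 0 past the threshold. Its lowest was Cd3g, a T cell receptor subunit gene, at −0.43 ± 0.13 (limma's adjusted p = 0.220). Its highest was Cd8a, at 0.20 ± 0.15.

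H2-Q10 fell in the arrays labelled Myc knockout. This gene encodes a secreted class I chain known mainly from the liver. It read 6.08, 6.08 and 5.95 in the arrays labelled Myc knockout and 6.50, 6.52 and 6.46 in the controls. All 3 arrays labelled Myc knockout lay below all 3 controls, with a gap wider than the spread in either group. The log2 difference was −0.46 ± 0.061, a 1.37-fold fall (95% confidence interval 1.24 to 1.52, limma's adjusted p = 0.0425). The call was lost when any 1 of the 6 arrays was left out (limma's adjusted p from 0.121 to 0.181) and under cyclic loess (0.0609), with the difference between −0.48 and −0.42 throughout. In bulk RNA, fewer cells with a transcript and less transcript per cell cannot be told apart. Class I genes are a family of near-identical copies that can share probes, so which copies the probe sets of H2-Q10, H2-K1, H2-D1 and the other class I genes of the K, Q and T regions read is uncertain.

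Of the 48 members, 1 fell and 0 rose past the threshold, where 0.198% of all genes fell and 0.254% rose. At an unadjusted p under 0.05 in limma, 10 members were lower and 1 was higher, against 7.91% and 6.97% of all genes. The groups did not overlap for 11 members that were lower and 4 that were higher, against 10.6% and 9.25% of all genes. By sign alone, 28 members were negative and 20 positive, against 47.8% and 52.2% of all genes. Level matters for this reading: 30 members lay at or above the median level, and of all genes that bright 13.8% were lower and 7.76% higher at an unadjusted p under 0.05. Of these 30 members, 9 were lower and 0 higher by that measure. Their groups did not overlap, with the arrays labelled Myc knockout below, for 11 of the 30, against 18.6% of genes that bright, and the reverse held for 1, Cd80, against 10.8%. The median log2 difference was −0.14 over the 30 members and −0.030 over all genes at or above the median level, with 21 of the 30 negative and 9 positive against 58% and 42% of those genes. The other 18 members lay below the median level, with a median difference of 0.044, and can show little of a change.

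**Figure D1:**
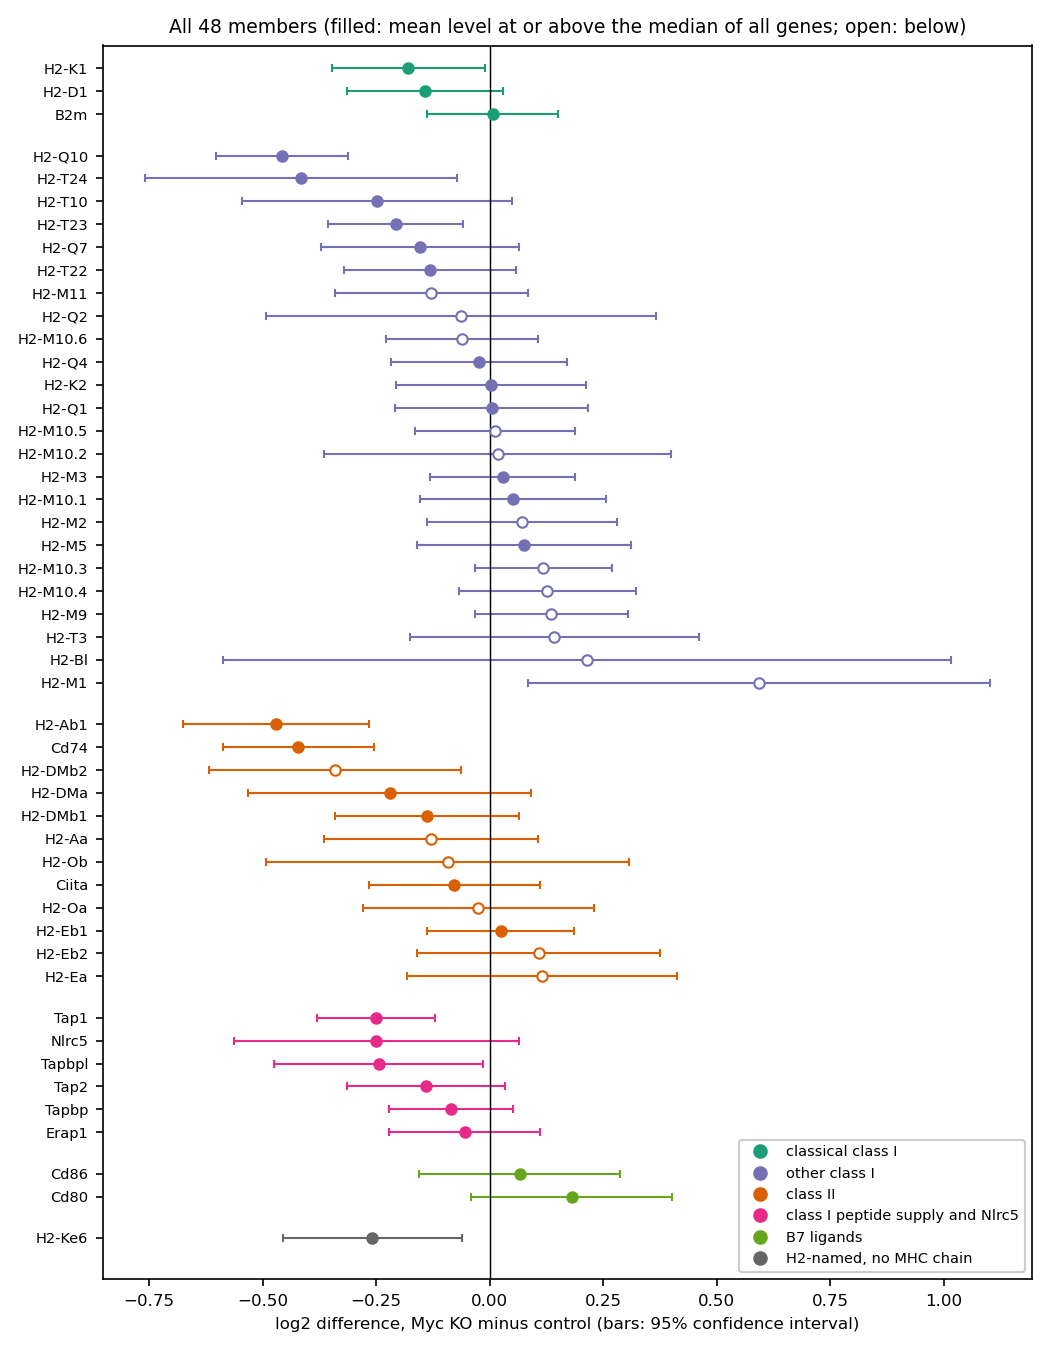
Log2 difference (horizontal axis, arrays labelled Myc knockout minus control) of all 48 members by group, with 95% confidence intervals from limma; filled points have a mean level at or above the median of all named genes and open points lie below it. H2-Q10, H2-Ab1, Cd74 and Tap1 stand left of 0 with narrow intervals. All 6 genes of class I peptide supply with Nlrc5 lie left of 0, against 58% of all genes at or above the median level.

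Among classical class I genes, the heavy chains were slightly lower without passing, and the light chain was level between the groups. H2-K1, the heavy chain of H-2K, read 10.31, 10.19 and 10.30 in the arrays labelled Myc knockout and 10.52, 10.47 and 10.35 in the controls. The groups did not overlap, but the highest array labelled Myc knockout came close to the lowest control. The difference was −0.18 ± 0.070 (limma's adjusted p = 0.312). H2-D1, the heavy chain of H-2D, read 11.48, 11.28 and 11.40 in the arrays labelled Myc knockout and 11.46, 11.58 and 11.55 in the controls, and the groups overlapped (−0.14 ± 0.072, limma's adjusted p = 0.407). B2m, the light chain shared by class I molecules, was at 11.98 ± 0.0059 in the arrays labelled Myc knockout and 11.97 ± 0.075 in the controls, with a difference of 0.0063 and a 95% confidence interval of −0.14 to 0.15. Its sign turned under median centring and cyclic loess, at −0.018 and −0.040, and without control replicate 3, at −0.033.

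Of the 24 other class I genes, 12 lay at or above the median level. Of those 12, 7 were negative, near the 58% of all genes that bright. These 7 were of the Q and T regions, where other genes were not lower. H2-Q1 differed by 0.0043, and the dim H2-T3 and H2-Bl by 0.14 and 0.21. H2-T23 encodes Qa-1, the ligand of the NK cell receptor CD94/NKG2A. It read 7.50, 7.57 and 7.64 in the arrays labelled Myc knockout and 7.75, 7.75 and 7.83 in the controls, with no overlap (−0.21 ± 0.062, limma's adjusted p = 0.213). H2-T24 read 4.11, 4.13 and 4.52 in the arrays labelled Myc knockout and 4.88, 4.52 and 4.60 in the controls. The highest array labelled Myc knockout stood just under the lowest control, and the difference was −0.42 ± 0.14 (limma's adjusted p = 0.264).

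H2-T22 and H2-T10, known as ligands of some gamma delta T cell receptors, had differences of −0.13 ± 0.079 and −0.25 ± 0.12. H2-T22 read 7.70, 7.49 and 7.70 in the arrays labelled Myc knockout and 7.84, 7.73 and 7.73 in the controls, without overlap. H2-Q7, which encodes the Qa-2 antigen, differed by −0.15 ± 0.091 with overlapping groups. None of these 3 passed, with limma's adjusted p between 0.404 and 0.481.

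The remaining 6 of the brighter class I genes differed little in either direction. H2-M3, which presents N-formylated peptides, was at 7.04 ± 0.056 in the arrays labelled Myc knockout and 7.01 ± 0.079 in the controls (0.028 ± 0.066). H2-Q4, H2-K2, H2-Q1, H2-M10.1 and H2-M5 had differences of −0.023, 0.0029, 0.0043, 0.051 and 0.075, and the 95% confidence intervals of these 6 genes reached −0.22 at the low end and 0.31 at the high end. H2-Q4, whose upstream sequence is shown above, read 6.65, 6.57 and 6.50 in the arrays labelled Myc knockout and 6.60, 6.47 and 6.71 in the controls, so its groups overlapped throughout.

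The other 12 class I genes were dim, and most belong to the M region, several of whose M10 genes are known from the vomeronasal organ. Their differences ran from −0.13 for H2-M11 to 0.59 for H2-M1. H2-M1, chosen here after its values were seen, read 1.21, 1.81 and 2.09 in the arrays labelled Myc knockout and 1.18, 1.01 and 1.14 in the controls (0.59 ± 0.21, limma's adjusted p = 0.281). All of these values lay at or below the lower quartiles of the arrays. H2-Bl had the widest spread, at 4.01, 3.42 and 2.59 in the arrays labelled Myc knockout and 3.19, 3.27 and 2.92 in the controls. H2-M9 read 1.66 on all 3 arrays labelled Myc knockout, a tie of the kind other probe sets of this table also show.

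**Figure D2:**
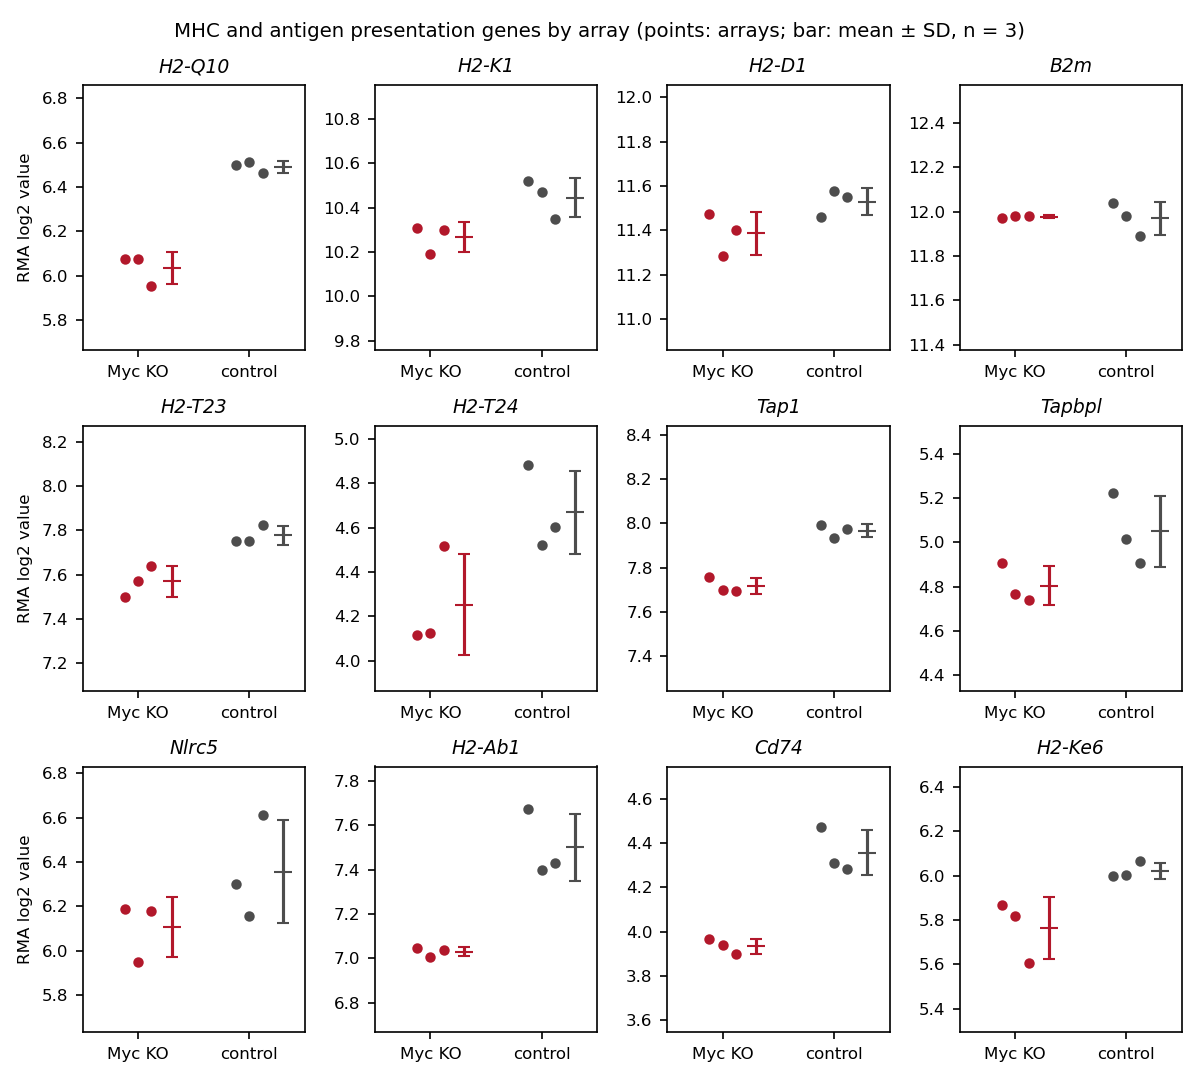
RMA log2 values (vertical axis, each panel spanning 1.2 log2 units around its own mean) of 12 members on each array, arrays labelled Myc knockout at the left and controls at the right; the bar is the mean ± SD of 3 arrays. The groups do not overlap for H2-Q10, Tap1, H2-Ab1, Cd74, H2-T23 and H2-Ke6. Those of H2-K1, H2-T24 and Tapbpl do not overlap either but come close. The panels are a selection, and Cd80, apart in the other direction, is not drawn. Of all 48 members, 11 were lower and 4 higher without overlap, against 10.6% and 9.25% of all genes. Of genes at or above the median level, 18.6% were lower and 10.8% higher without overlap. B2m lies between 11.89 and 12.04 on all 6 arrays.

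Of the 6 genes of class I peptide supply with Nlrc5, 0 passed and all 6 had negative differences. The groups overlapped for Nlrc5, Tap2 and Erap1. Of all genes at or above the median level, 58% were negative and 18.6% were lower without overlap. Tap1, a subunit of the peptide transporter, read 7.76, 7.70 and 7.69 in the arrays labelled Myc knockout and 7.99, 7.93 and 7.97 in the controls. The groups were apart by more than the spread within either, at −0.25 ± 0.054 or 1.19-fold lower (limma's adjusted p = 0.122). Its partner Tap2 read 6.22, 6.06 and 6.12 in the arrays labelled Myc knockout and 6.21, 6.25 and 6.37 in the controls, with overlap (−0.14 ± 0.073). Tapbp, the gene of tapasin, which bridges class I to the transporter, was at 9.32 ± 0.057 in the arrays labelled Myc knockout and 9.40 ± 0.020 in the controls (−0.085 ± 0.057).

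Tapbpl encodes a tapasin relative that edits the bound peptides. It read 4.91, 4.77 and 4.74 in the arrays labelled Myc knockout and 5.22, 5.02 and 4.91 in the controls (−0.24 ± 0.096, limma's adjusted p = 0.312). Its highest array labelled Myc knockout and its lowest control were almost level. Erap1, the aminopeptidase that trims peptides in the endoplasmic reticulum, differed by −0.055 ± 0.069.

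Nlrc5, the class I transactivator gene, read 6.19, 5.95 and 6.18 in the arrays labelled Myc knockout and 6.30, 6.16 and 6.61 in the controls. The groups overlapped and the controls were widely spread (−0.25 ± 0.13, limma's adjusted p = 0.423). The median difference of these 6 genes was −0.19, beside −0.030 over all genes at or above the median level, where all 6 lie, and 0.0077 over all genes. By array, the median deviation of the 6 genes from their control means was −0.11, −0.24 and −0.17 in the arrays labelled Myc knockout and 0.023, −0.031 and −0.0063 in the controls. Without control replicate 3 the median difference was −0.12.

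Of the 12 class II genes, 6 lay at or above the median level. Of those 6, 5 had negative differences, against 58% of all genes that bright. H2-Ab1, the beta chain of I-A, read 7.04, 7.01 and 7.04 in the arrays labelled Myc knockout and 7.68, 7.40 and 7.43 in the controls. The arrays labelled Myc knockout were tightly grouped below every control, at −0.47 ± 0.085 or 1.39-fold lower (95% confidence interval 1.20 to 1.60), and the adjusted p in limma was 0.0885. It passed when the prior variance followed intensity and with dim genes left out (limma's adjusted p = 0.0409 and 0.0300), in a range of 0.0300 to 0.229 over the alternatives. H2-Aa, the alpha chain that pairs with it, lay below the lower quartiles of the arrays, apart from 1 control, at 1.70, 1.95 and 1.91 in the arrays labelled Myc knockout and 1.89, 1.94 and 2.14 in the controls, and cannot show a lack of change.

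Cd74, the invariant chain gene, read 3.97, 3.94 and 3.90 in the arrays labelled Myc knockout and 4.47, 4.31 and 4.29 in the controls. As with H2-Ab1, every array labelled Myc knockout lay below every control (−0.42 ± 0.070, 1.34-fold, limma's adjusted p = 0.0751). With dim genes left out it passed (limma's adjusted p = 0.0239), in a range of 0.0239 to 0.195 over the alternatives. The levels of Cd74 are not far above the array medians, where RMA understates a change.

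The peptide editor H2-DM was lower without passing. H2-DMa read 5.03, 4.77 and 4.62 in the arrays labelled Myc knockout and 5.21, 4.88 and 4.99 in the controls, and H2-DMb1 had a mean of 4.54 ± 0.029 in the arrays labelled Myc knockout and 4.68 ± 0.15 in the controls. Both pairs of groups overlapped, at −0.22 ± 0.13 and −0.14 ± 0.085. H2-DMb2, chosen after its values were seen, was lower at an unadjusted p of 0.0234 in limma but dim, at 1.37 ± 0.15 in the arrays labelled Myc knockout and 1.71 ± 0.18 in the controls.

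H2-Eb1, the beta chain of I-E, stood at 3.88 ± 0.074 in the arrays labelled Myc knockout and 3.86 ± 0.069 in the controls. Its alpha chain gene H2-Ea, a pseudogene in C57BL/6 mice, was near the lower quartiles at 2.15, 2.07 and 2.17 in the arrays labelled Myc knockout and 1.87, 2.30 and 1.87 in the controls. Ciita, the class II transactivator gene, read 3.41 on 5 arrays and 3.64 on control replicate 1, close to the array medians, so a change in it could hardly be seen. H2-Eb2, H2-Oa and H2-Ob were below the median level, with differences of 0.11, −0.026 and −0.092. Over the 12 class II genes the median difference was −0.11, or −0.065 if replicate 1 labelled Myc knockout is left out. Of markers of other class II cells, 0 of 8 dendritic cell, 1 of 7 B cell and 2 of 7 macrophage and monocyte markers lay at or above the median level, and the groups overlapped for those 3 (Pax5, Cd68 and Ly6c2). The part of other cells in the class II values was not tested.

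The B7 ligands, which bind CD28 and CTLA-4 on T cells, had positive differences. Cd80 read 5.24, 5.48 and 5.23 in the arrays labelled Myc knockout and 5.20, 5.02 and 5.18 in the controls. The groups did not overlap but nearly touched (0.18 ± 0.092, limma's adjusted p = 0.413). Cd86 read 5.65, 5.79 and 5.85 in the arrays labelled Myc knockout and 5.85, 5.65 and 5.60 in the controls, with full overlap (0.066 ± 0.092).

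H2-Ke6, which carries the H2 name for its place in the locus, read 5.87, 5.82 and 5.60 in the arrays labelled Myc knockout and 6.00, 6.00 and 6.07 in the controls, without overlap (−0.26 ± 0.082, limma's adjusted p = 0.239). Its neighbours that are no members were therefore counted too. Between H2-K2 and H2-M2 in the RefSeq order, 79 other genes lay at or above the median level. Of these, 15.2% were lower and 7.59% higher at an unadjusted p under 0.05 in limma, with a median difference of −0.032. Their groups did not overlap for 19% lower and 11.4% higher, and 62% were negative and 38% positive. Of these 79 genes, 1 fell and 1 rose past the threshold, where 0.198% of all genes fell and 0.254% rose. Their differences ran from −1.62 to 1.42. Of the 21 members of that stretch at such levels, 7 were lower and 0 higher by the same p. Without overlap 8 were lower and 0 higher, and 15 were negative and 6 positive, with a median of −0.14. Of all genes at or above the median level, 13.8% were lower and 7.76% higher by that p. Without overlap 18.6% of them were lower and 10.8% higher, and 58% were negative and 42% positive.

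**Figure D3:**
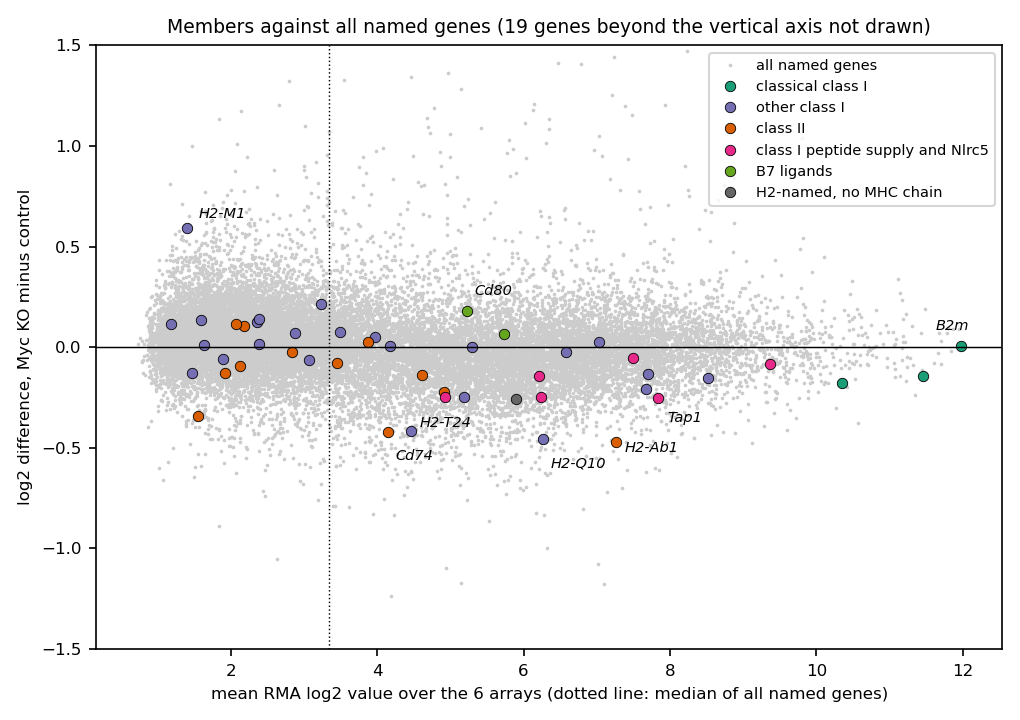
Log2 difference (vertical axis, arrays labelled Myc knockout minus control) against mean RMA log2 value (horizontal axis) for the members in colour and all named genes in grey; 19 genes beyond ±1.5 are not drawn. Right of the dotted median line, members lie mostly below 0 and within the grey cloud.

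Other genes of antigen presentation were taken from 8 lists of 79 genes, of which 77 were measured. Of these 77 genes 1 rose and 0 fell past the threshold, where 0.254% of all genes rose and 0.198% fell. Procr, the protein C receptor gene, whose product has a CD1-like fold, read 7.17, 6.66 and 6.82 in the arrays labelled Myc knockout and 5.80, 5.65 and 5.95 in the controls. Every array labelled Myc knockout exceeded every control by a wide gap, a 2.12-fold rise (95% confidence interval 1.67 to 2.70, limma's adjusted p = 0.0440). It was 1 of 12 MHC-like genes outside the H2 region, where the median difference was 0.015. In that list H60c, a ligand gene of the receptor NKG2D, was dim at 2.14 and 1.91 on average in the arrays labelled Myc knockout and in the controls. With any single array left out, limma called 0 of the 12, and an unadjusted p under 0.05 was reached by 2 that were higher. With all 6 arrays that count was also 2, Procr and H60c, and 0 were lower. By the same p, 6.97% of all genes were higher and 7.91% lower. Among genes at or above the median level, where 3 of the 12 lay, 7.76% were higher and 13.8% lower.

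The proteasome genes, which make the peptides, lay close to 0. The 8 measured proteasome and activator genes had a median of −0.016 and a range of −0.085 for Psmb8 to 0.11 for Psmb10. Both encode catalytic subunits of the immunoproteasome. At an unadjusted p under 0.05 in limma 0 of the 8 were lower and 0 higher. Of all genes at or above the median level, where these 8 lie, 13.8% were lower and 7.76% higher. The 9 chaperones and loading factors of the endoplasmic reticulum had a median of 0.019; Hspa5, the gene of the chaperone BiP, had a difference of 0.19 ± 0.072 and P4hb one of −0.076 ± 0.064. Among 6 cytosolic peptidases, Thop1 was higher and Npepps lower without passing. Thop1, the gene of thimet oligopeptidase, read 6.49, 6.50 and 6.50 in the arrays labelled Myc knockout and 6.21, 6.17 and 6.19 in the controls (limma's adjusted p = 0.0767). Npepps, the gene of the puromycin-sensitive aminopeptidase, averaged 7.44 in the arrays labelled Myc knockout and 7.74 in the controls (limma's adjusted p = 0.112).

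Class II processing genes were mixed, with a median of 0.0099 over 9. Ifi30, whose product reduces disulfide bonds in endosomes, had a difference of 0.24 ± 0.058, and Ctsd, the cathepsin D gene, one of −0.22 ± 0.062; neither passed. Among 10 genes of the factors that bind MHC promoters and their cofactors, the median was −0.042. All 10 lay at or above the median level, where the median over all genes was −0.030. Of the 10, 7 were negative and 3 positive, namely Nfya, Nfyb and Nfyc at 0.089, 0.10 and 0.027. Rfx5 and Rfxap, subunits of the RFX factor that binds the X box, had differences of −0.32 ± 0.11 and −0.19 ± 0.075 without passing (limma's adjusted p = 0.278 and 0.312). Rfx5 read 5.61, 5.65 and 5.97 in the arrays labelled Myc knockout and 6.13, 5.93 and 6.14 in the controls, so the highest array labelled Myc knockout overlapped the controls.

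The interferon gamma pathway, a known inducer of MHC genes, had a median of −0.13 over 11 measured genes, with 9 negative. None passed, and 3 were lower and 1 higher at an unadjusted p under 0.05 in limma. Of its genes, 10 lay at or above the median level, where 13.8% of all genes were lower, 7.76% higher and 58% negative. Jak1, a kinase shared by interferon and cytokine receptors, read 10.33, 10.38 and 10.44 in the arrays labelled Myc knockout and 10.75, 10.75 and 10.78 in the controls, well apart (−0.37 ± 0.057, limma's adjusted p = 0.0647). Irf8, a transcription factor gene of the interferon response, differed by −0.31 ± 0.10 (limma's adjusted p = 0.258). Ifng itself was at 2.02 in the arrays labelled Myc knockout and 2.15 in the controls on average, near the lower quartiles of the arrays.

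Further ligands for T cell and NK cell receptors had a median of 0.039 over 12 genes, and none passed. At an unadjusted p under 0.05 in limma 2 were higher and 0 lower, against 6.97% and 7.91% of all genes and 7.76% and 13.8% of genes at or above the median level, where 8 of the 12 lay. These were Nectin2, a ligand gene of the activating receptor DNAM-1 (0.26 ± 0.11), and Tnfsf9, the gene of 4-1BB ligand (0.16 ± 0.067). Cd274 and Pdcd1lg2, which encode the ligands of PD-1, had differences of −0.17 ± 0.084 and −0.22 ± 0.13.

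**Figure D4:**
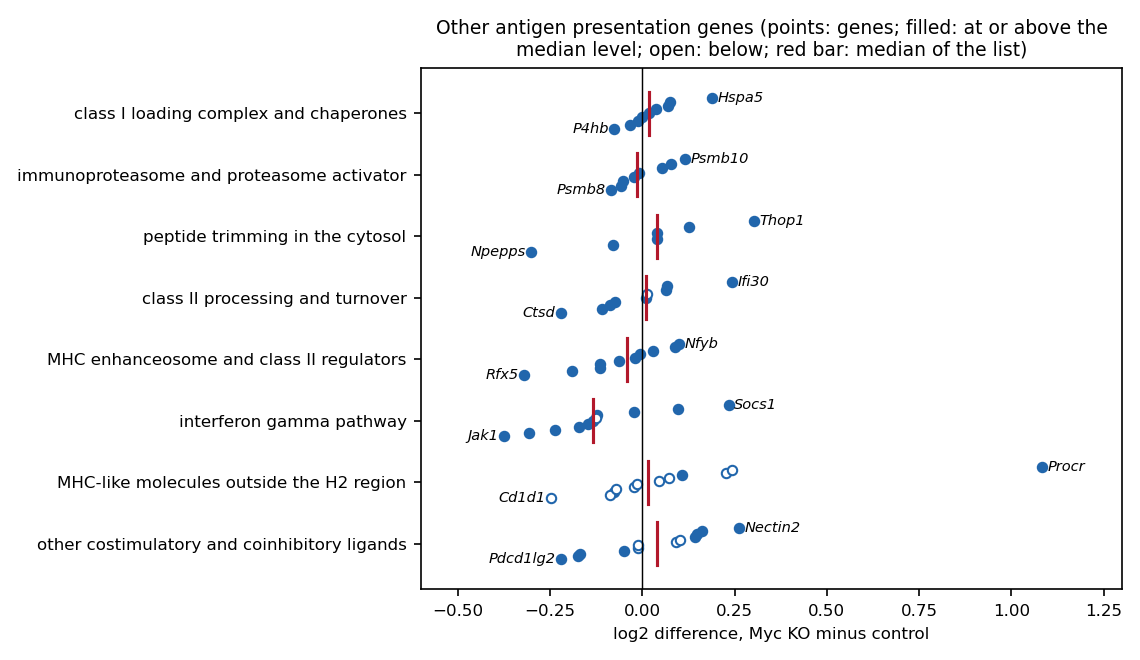
Log2 difference (horizontal axis, arrays labelled Myc knockout minus control) of 77 other antigen presentation genes in 8 lists, with the median of each list as a red bar; filled points are at or above the median level of all named genes. Procr lies at 1.08, and the interferon gamma list has the lowest median, −0.13.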

How the data were processed

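Expression was measured in 3 arrays labelled Myc knockout and 3 controls, grouped by their titles. The deposited values are log2 intensities that the authors obtained by RMA. The submitters' processing notes also list limma 3.14.4. Which array version and genome build the probe sets follow is not given in the sources used here. The platform annotation names 23185 of the 25206 probe sets with 1 symbol each, 0 with several and leaves 2021 unnamed. All 48 members matched the RefSeq gene table of GRCm38.p6.

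The main model was limma 3.58.1 under R 4.3.3, with lmFit and eBayes, no trend and no covariate, two-sided, with Benjamini-Hochberg adjustment over all named genes. The lists got no test of their own. The procedure was tested on simulated data. After a 10-letter form had been searched, the kappaB letters were cut to 9. Motifs were searched in Python 3.11.15, alignments used Biopython 1.88, and figures matplotlib 3.10.9. Arrays carry no read depth, and their number limits the precision.

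The members and lists were chosen with earlier results of these data known. The rule named Myc; members called or at or above the median level; H2-K1, H2-D1, H2-Aa, H2-Ab1, H2-Ea, H2-Eb1, H2-DMa, H2-DMb1 and the 11 members without an H2 name at any level; and the called genes of each list, or else the 2 with the smallest p. Other genes named were chosen after their values were seen. Alternatives were a replicate block, a trend in the prior variance, median centring, cyclic loess, a filter on dim genes, all probe sets and each array left out.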

Additional observations from a re-analysis of the deposited data

How the results depend on the processing

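Calls depended on the fit. With the replicate number as a block, limma called 0 genes higher and 0 lower (1486 and 1560 at an unadjusted p under 0.05), 0 members lower and 0 MHC-like genes higher, against 59, 46, 1 and 1 without it; H2-Q10 then had an adjusted p of 0.173. Same-numbered arrays did not deviate together (correlations of −0.070, −0.012 and −0.017 over 23185 genes). With 3 arrays per group this cannot settle whether they were prepared together, which the labels do not state. An intensity trend gave 162 genes higher and 208 lower and 3 members lower (H2-Q10, H2-Ab1 and Tap1). Among genes at or above the median level, 204 were higher and 345 lower and 4 members were lower, Cd74 being added, and the median of the 12 other class I genes left was −0.077. Cyclic loess called 0 members lower (10 at an unadjusted p under 0.05), with H2-Q10 at −0.42 (limma's adjusted p = 0.0609). Leaving out each array in turn left 0 to 2 genes higher and 0 to 1 lower, 0 members lower and 0 MHC-like genes higher in limma; H2-Q10 then ranged from −0.48 to −0.42, with adjusted p from 0.121 to 0.181. Over all 12 alternatives its adjusted p ran from 0.0123 to 0.181. With each array left out in turn, the median of class I peptide supply with Nlrc5 ranged from −0.23 to −0.12, that of classical class I from −0.19 to −0.091, that of class II from −0.16 to −0.065 and that of the B7 ligands from 0.076 to 0.18. Replicate 2 labelled Myc knockout, when left out, gave −0.091 and 0.076, replicate 1 gave −0.065 and control replicate 3 gave −0.12. Of 32 named members, 6 with differences near 0 changed sign under some alternative and none of those was called. Dim probe sets, 18 of the 48 members, limit what can be seen.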
